A study of Arabidopsis thaliana with 15 samples.

Results

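The comparison set the 5 leaf libraries numbered 2 against the 5 numbered 1, with a pair of libraries from each of 5 Arabidopsis thaliana lines. It used 10 of the 15 libraries of the series, chosen by the replicate number in their labels alone, so that no measured value entered the choice, and the genotypes are the same on both sides. The study was about those pentatricopeptide repeat (PPR) proteins that take part in RNA editing in mitochondria and chloroplasts. It compared the wild type Col-0 with 4 lines labelled as T-DNA insertion mutants: pgn (insertion in AT1G56570), mef37-1 (AT5G08305), at3g50420 and at5g10690. RNA came from rosettes of untreated plants grown in long days on single plugs. An age of 25.5 days is given for the libraries of Col-0, mef37-1, pgn and at3g50420 in both sets, and Boyes stage 1.14 for those of at5g10690. No label says what a replicate number stands for (a tray, a day or an extraction), and the series text gives 1 biological replicate, so the p-values below measure the spread between these libraries, which may be technical.

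Leaves hold several programmes that change with growth conditions, age, time of day and contact with microbes or neighbours. Salicylic acid, made through isochorismate in the chloroplast, switches on pathogenesis-related proteins through NPR1 and WRKY proteins, while jasmonate, made from chloroplast lipids, works by removing JAZ repressors in the response to wounding and herbivores. Chloroplasts carry their own genes, read by a plastid-encoded RNA polymerase and translated on plastid ribosomes, and mitochondria hold alternative respiratory enzymes that rise under stress.

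The totals were 22345097 to 28450968 counts per library in set 2 and 19555274 to 30901304 in set 1. Plastid genes took 61.6% ± 1.41 of all counts in set 2 and 62.0% ± 2.36 in set 1 (SD, n = 5 each), a difference within the spread of the pairs (exact sign-flip test over 5 lines, two-sided p = 0.875). Counts of PGN were low in both pgn libraries (6 in set 2, 9 in set 1) and those of AT5G10690 in both at5g10690 libraries (3 in set 2, 1 in set 1). AT5G08305 had 20 (set 2) and 17 (set 1) counts in the libraries labelled mef37-1, more than the 8 and 8 of Col-0. Counts per gene do not separate full-length from partial transcripts, so they cannot test the loss of the full-length form. The paper reports that leaves of this mutant lacked full-length transcripts of the gene and had lower editing at several mitochondrial sites. AT3G50420 had 11 (set 2) and 10 (set 1) counts in the libraries labelled at3g50420. These lay within the range of the other lines (3 to 16 in set 2, 4 to 11 in set 1). The counts alone neither show nor exclude the insertion in either line, and the names mef37-1 and at3g50420 follow the labels here. As a check of the rosette label, the antenna gene LHCB1.3 averaged 10831 CPM (counts scaled by effective library size) in set 2 and 10172 CPM in set 1, whereas 0 of 13 flower markers and 0 of 13 seed markers had enough counts to be tested. The set 1 library of at3g50420 stood apart from the other 4 of its set in 7 of the genes named by rule. The fit without this line is given for all genes, salicylic acid defence and plastid gene expression.

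Of 18105 genes tested, 438 (2.42%) differed between the sets at an adjusted p under 0.05 in edgeR's quasi-likelihood test with line as a block, which is the test behind every call below unless another is named. Set 2 was lower in 323 (1.78%) and higher in 115 (0.635%). The lower genes also moved further: 177 of them had a log2 fold change below -1, and 15 of the higher ones were above 1. At an unadjusted p under 0.05, 22% of all genes differed, 9.75% higher and 12.3% lower, which is the base for the unadjusted counts of the lists. Of the 438 genes, 437 moved the same way in all 5 lines, where 9.99% of all genes tested were lower and 9.71% higher in all 5. In 286 the 5 set 2 libraries lay wholly to 1 side of the 5 set 1 libraries, where 3.49% of all genes lay wholly below and 3.47% wholly above. Both counts largely follow from the call, which weighs the change against its spread over the lines, and add little to it. The calls rest on few degrees of freedom (4), and leaving out a line changed their number much: 37 genes passed without Col-0, 64 without mef37-1, 652 without at3g50420 and 377 without at5g10690. Without pgn, 0 genes passed with edgeR, although 2948 had an unadjusted p under 0.05. All 436 of the 438 genes still tested without pgn kept their direction. That was nearly settled in advance, since 437 of the 438 went 1 way in all 5 lines.

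Genes were described by lists of known leaf functions, 35 in all, beside all genes of each organelle. The lowest median was that of salicylic acid defence, followed by jasmonate, early responses to touch and wounding, and alternative respiration in mitochondria, all lower in set 2. The lists with medians above 0 were led by plastid gene expression, the plastid NDH complex and chlorophyll biosynthesis. All genes tested together had a median log2 fold change of -0.0020.

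**Figure D1:**
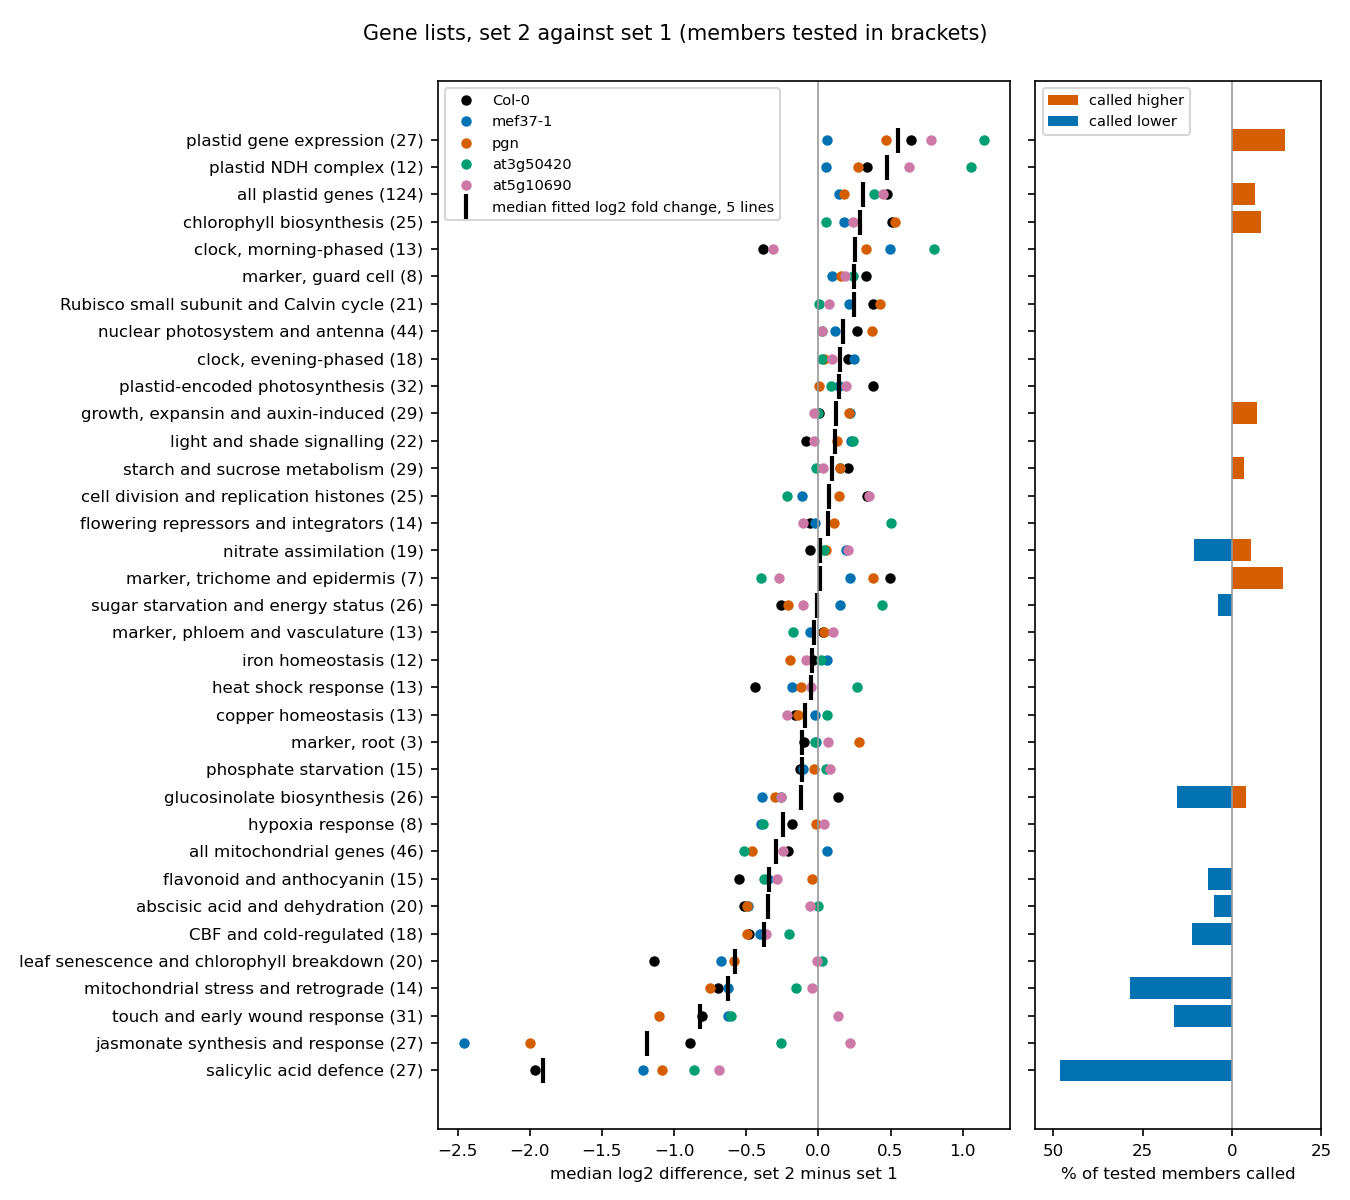
Median log2 difference of each gene list in each line (points, on log2(CPM + 0.5)) and median fitted log2 fold change over the 5 lines (black bars), with the share of tested members called lower or higher on the right. Salicylic acid defence had the lowest fitted median (-1.91, 13 of 27 members called lower), and plastid gene expression the highest (0.55, 4 of 27 called higher).

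Salicylic acid defence had the most calls of any list of functions. Of 27 members tested, 13 were called lower and 0 higher, against 1.78% and 0.635% of all genes, and all 27 fitted changes were below 0 with a median of -1.91. In 20 of the 27 set 2 was lower in all 5 lines, where 9.99% of all genes were. The summed level of the list was 189.7 to 430.8 CPM in set 2 and 428.1 to 1714 CPM in set 1. The median over members within a line, on log2(CPM + 0.5), which damps changes of low genes, was -1.97 in Col-0, -1.22 in mef37-1, -1.09 in pgn, -0.86 in at3g50420 and -0.69 in at5g10690. Single library values below are CPM in the line order Col-0, mef37-1, pgn, at3g50420, at5g10690.

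PR2 (AT3G57260, chromosome 3), a β-1,3-glucanase and common marker of this response, had 24.99, 62.0, 5.28, 27.4 and 118 CPM in set 2, against 709, 301, 156, 105 and 277 CPM in set 1. Each set 2 library was below its partner, but the at5g10690 library of set 2 was above the at3g50420 library of set 1. The log2 fold change was -2.96 ± 0.60 (SE, edgeR adjusted p = 0.0477). PR5, a thaumatin-like protein induced with PR2, averaged 17.5 CPM in set 2 and 138 CPM in set 1 (log2 fold change -2.49, edgeR adjusted p = 0.042). PR1, the third classical marker, averaged 12.3 CPM in set 2 and 48.2 CPM in set 1 and was below its partner in all 5 lines, yet did not pass (edgeR adjusted p = 0.120).

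WRKY70 (AT3G56400), a transcription factor between the salicylic acid and jasmonate branches, had 9.21, 8.83, 2.75, 3.58 and 11.0 CPM in set 2 and 26.6, 27.2, 12.001, 8.60 and 18.1 CPM in set 1. Its log2 fold change was -1.43 ± 0.18 (edgeR adjusted p = 0.0235), with overlap between the sets because the level differed between lines in both. Its relative WRKY54 also fell (log2 fold change -0.80, edgeR adjusted p = 0.044). WRKY38 (AT5G22570), a salicylic acid-induced member of the same family, had 0.333, 0.493, 0.0423, 0.181 and 0.180 CPM in set 2, all below the 2.87, 1.86, 0.546, 0.728 and 2.11 CPM of set 1. Its log2 fold change of -2.67 ± 0.32 (edgeR adjusted p = 0.0235) rests on 1 to 14 counts per library in set 2 and 13 to 100 in set 1.

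NIMIN1 and NIMIN2 encode small proteins that bind NPR1, the receptor-regulator of the response. NIMIN2 (AT3G25882) had 0.791, 1.13, 0.423, 0.470 and 0.854 CPM in set 2, below all set 1 libraries with 5.02, 3.28, 1.59, 2.18 and 2.46 CPM. Its log2 fold change was -1.96 ± 0.21 (edgeR adjusted p = 0.0235). NIMIN1 (AT1G02450) had 0.167, 0.176, 0.0423, 0.0361 and 0.0450 CPM in set 2, and 2.07, 0.783, 0.252, 0.546 and 0.752 CPM in set 1. The log2 fold change of -3.11 ± 0.38 (edgeR adjusted p = 0.0235) stands on 12 counts over the 5 set 2 libraries and 126 over those of set 1. NPR1 itself averaged 14.2 CPM in set 2 and 16.7 CPM in set 1 (edgeR adjusted p = 0.305).

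**Figure D2:**
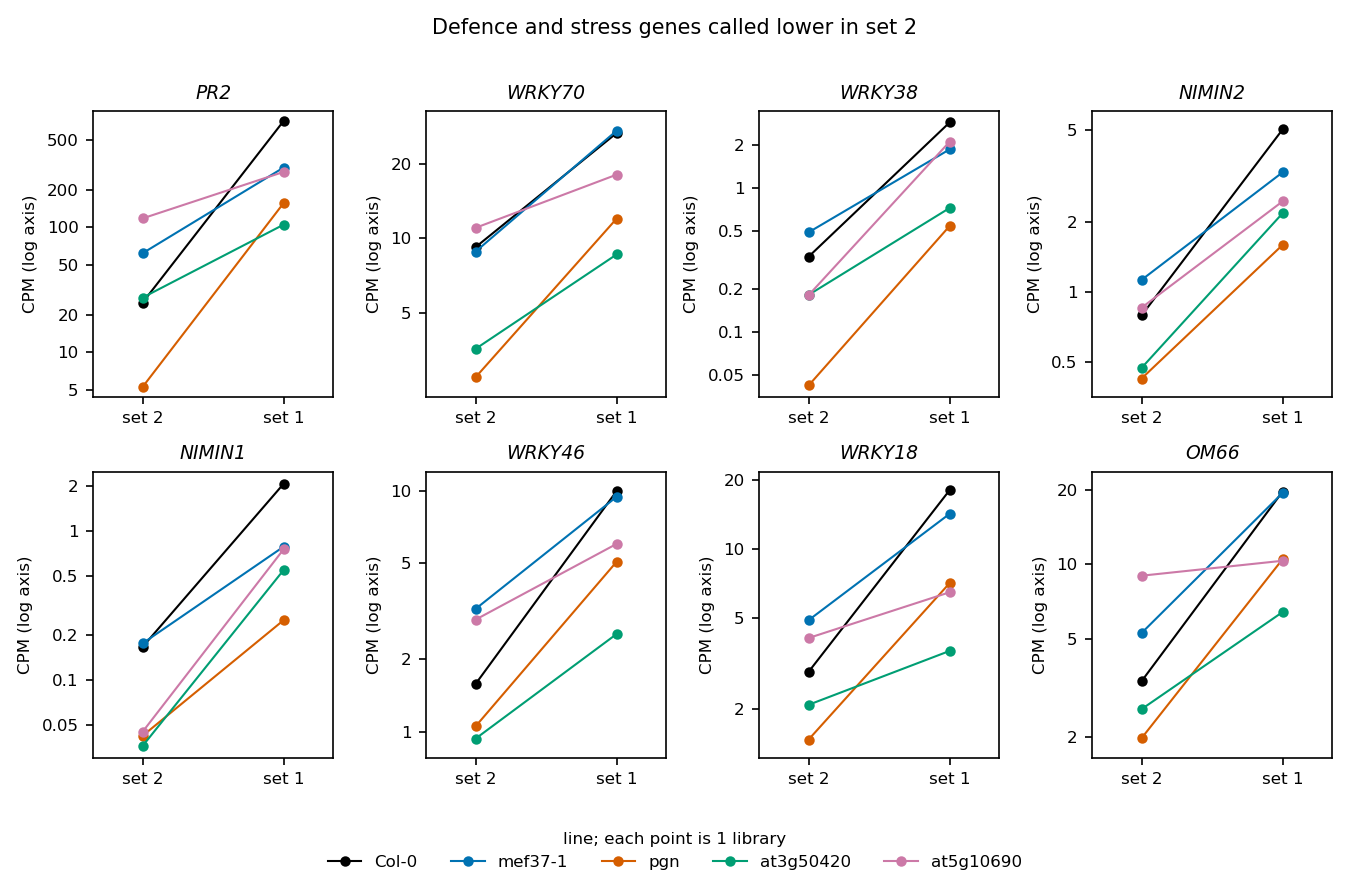
CPM of 8 genes called lower in set 2, on log axes, with set 2 left and set 1 right and a line joining both libraries of a plant line. All joining lines run up towards set 1, from a small step of OM66 in at5g10690 (8.99 CPM in set 2, 10.3 CPM in set 1) to that of PR2 in pgn (5.28 CPM in set 2, 156 CPM in set 1).

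Further members, named after their values were seen, make salicylic acid or switch its synthesis on. EDS5, the transporter that exports the precursor from the chloroplast, averaged 2.04 CPM in set 2 and 7.39 CPM in set 1 without overlap (log2 fold change -1.93, edgeR adjusted p = 0.024). The activators CBP60G and SARD1 fell, with log2 fold changes of -1.25 and -1.19 (edgeR adjusted p = 0.034 and 0.048). ICS1, the isochorismate synthase they activate, averaged 6.61 CPM in set 2 and 15.8 CPM in set 1, lower in all 5 lines, with an edgeR adjusted p of 0.052. The upstream lipase-like regulators PAD4 and EDS1 had log2 fold changes of -1.06 and -0.57 that did not pass (edgeR adjusted p = 0.057 and 0.102). The other called members were GRX480, AIG1 and NUDT6, and ACD6, which sets the basal level of defence in many accessions, was nearly level (72.5 CPM in set 2, 77.7 CPM in set 1, edgeR adjusted p = 0.900).

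The count of the list depended on the test and the lines. DESeq2 called 18 members lower and edgeR's likelihood ratio test 22. With each line left out in turn, 2 members were called lower without Col-0, 3 without mef37-1, 0 without pgn, 12 without at3g50420 and 12 without at5g10690, while the median stayed between -2.07 and -1.43. Within Col-0, mef37-1 and pgn alone, 20 of 27 were called lower, and within at3g50420 and at5g10690 alone 11 of 26, both splits chosen after the line values were seen.

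The 8 largest falls among called genes of at least 1 CPM were those of PR2, AMY1, JAL22, CRK37, AT4G00700, AT4G10500, AT3G15536 and AT1G76960. AMY1 (AT4G25000), a secreted α-amylase, had 0.167, 1.69, 0.127, 0.217 and 2.47 CPM in set 2, against 29.0, 8.46, 3.36, 1.502 and 7.88 CPM in set 1 (log2 fold change -3.27 ± 0.66, edgeR adjusted p = 0.0477). The Col-0 library of set 1 was far above its set. CRK37 (AT4G04500), a cysteine-rich receptor-like kinase, followed the same profile, with 0.708, 2.499, 0.254, 0.181 and 1.799 CPM in set 2, and 27.3, 9.99, 3.02, 0.956 and 8.28 CPM in set 1 (log2 fold change -3.01 ± 0.46, edgeR adjusted p = 0.0286). AT4G10500, an oxygenase that hydroxylates salicylic acid, averaged 1.26 CPM in set 2 and 8.44 CPM in set 1 (log2 fold change -2.69, edgeR adjusted p = 0.0477).

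JAL22 (AT2G39310), a jacalin-related lectin, AT1G76960, an uncharacterized protein, and AT4G00700, of a C2-domain family, did not overlap between the sets. JAL22 had 0.0423 to 0.704 CPM in set 2 and 0.819 to 3.19 CPM in set 1 (log2 fold change -3.21 ± 0.47, edgeR adjusted p = 0.0267). AT1G76960 had 0.867 to 3.73 CPM in set 2 and 5.75 to 28.9 CPM in set 1 (log2 fold change -2.68 ± 0.31, edgeR adjusted p = 0.0235). Its adjusted p was under 0.05 in 16 of 17 alternatives. Without pgn, where 0 genes passed, it was 0.0818 with edgeR. The alternatives include the stricter threshold of 0.01, which AT1G76960 did not pass and which reuses the main fit. They also include both splits of the lines chosen after the line values were seen, so 16 of 17 overstates how firm the call is. AT4G00700 averaged 0.915 CPM in set 2 and 7.64 CPM in set 1, and AT3G15536 averaged 0.834 CPM in set 2 and 6.08 CPM in set 1.

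Early response genes, which rise within minutes of touch, wounding or a microbial signal, were lower as well. Of 31 tested, 5 were called lower and 0 higher, 23 had an unadjusted p under 0.05 in the lower direction, and the median was -0.82. DESeq2 called 10 lower and edgeR's likelihood ratio test 12. WRKY46 (AT2G46400) had 1.58, 3.24, 1.06, 0.939 and 2.92 CPM in set 2, against 9.96, 9.43, 5.08, 2.55 and 6.02 CPM in set 1 (log2 fold change -1.77 ± 0.23, edgeR adjusted p = 0.0235). Only the set 1 library of at3g50420 fell within the range of set 2. WRKY18 (AT4G31800), which together with its relatives tunes the same defences, averaged 3.09 CPM in set 2 and 9.87 CPM in set 1 (log2 fold change -1.58 ± 0.29, edgeR adjusted p = 0.0359).

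ERF4 (AT3G15210), a repressor of the ethylene response, separated the sets with 8.54 to 12.1 CPM in set 2 and 16.1 to 22.6 CPM in set 1 (log2 fold change -0.82 ± 0.12, edgeR adjusted p = 0.0273). The remaining called members were CAF1b, a deadenylase that shortens mRNA tails, and CML37, a calmodulin-like protein with 3 to 6 counts per library in set 2 and 9 to 20 in set 1. The touch genes TCH2, TCH3 and TCH4 that gave the response its name did not pass, with log2 fold changes of -0.51, -0.42 and -0.87. The members of the list shifted less in at5g10690, where the median within the line was 0.13, than in the other lines, where it was -1.103 to -0.61. This difference between lines was not tested.

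Alternative respiration and mitochondrial stress genes gave 4 of 14 tested members called lower and 0 higher, with a median of -0.62. NDB2 (AT4G05020), an NADH dehydrogenase on the outer face of the inner membrane that bypasses complex I, had 16.1, 15.1, 12.8, 15.1 and 16.7 CPM in set 2, all below the 33.0, 25.5, 23.1, 17.9 and 23.3 CPM of set 1 (log2 fold change -0.68 ± 0.12, edgeR adjusted p = 0.0347). NDA2 (AT2G29990), its counterpart on the matrix side, had 7.12 to 8.37 CPM in set 2 and 8.42 to 14.3 CPM in set 1 (log2 fold change -0.60 ± 0.10, edgeR adjusted p = 0.0322). DIC1 (AT2G22500), a dicarboxylate carrier, was 13.4 to 17.5 CPM in set 2 and 20.5 to 29.7 CPM in set 1 (log2 fold change -0.55 ± 0.09, edgeR adjusted p = 0.0322).

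OM66 (AT3G50930), an ATPase of the mitochondrial outer membrane that also responds to salicylic acid, had 3.37, 5.28, 1.99, 2.60 and 8.99 CPM in set 2 and 19.7, 19.4, 10.5, 6.42 and 10.3 CPM in set 1 (log2 fold change -1.65 ± 0.32, edgeR adjusted p = 0.0415). The best known member, the alternative oxidase AOX1A, was 23.9 CPM in set 2 and 27.1 CPM in set 1 and did not pass (edgeR adjusted p = 0.608), nor did NDA1, a light-regulated matrix dehydrogenase, at 17.3 CPM in set 2 and 14.9 CPM in set 1. Without the Col-0, mef37-1 or pgn pair no member of the list passed with edgeR, where 4 or 5 had an unadjusted p under 0.05 in the lower direction.

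Transcripts of the mitochondrial genome also took a smaller share of the counts. The share was 1.03%, 1.05%, 0.961%, 0.879% and 0.984% in set 2, against 1.36%, 1.099%, 1.24%, 1.12% and 1.25% in set 1. All 5 set 2 libraries lay below all 5 of set 1, although the step in mef37-1 was small. The mean was 0.980% ± 0.0665 in set 2 and 1.21% ± 0.107 in set 1 (SD, n = 5 each), and the exact sign-flip test over the 5 lines gave a two-sided p of 0.063, the smallest that 5 pairs allow. Of 46 mitochondrial genes tested, 0 were called with edgeR, 22 had an unadjusted p under 0.05 in the lower direction and 0 in the higher, and the median log2 fold change was -0.29. DESeq2 called 7 lower and edgeR's likelihood ratio test 5. Fewer mitochondrial transcripts and more of the others cannot be told apart in a share.

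Among glucosinolates, the sulfur compounds that deter herbivores in this family of plants, 4 of 26 tested genes were called lower and 1 higher, with a median of -0.12. Of those called lower, 3 act in the branch that starts from tryptophan, the indole branch, a grouping made after their values were seen. CYP79B2 (AT4G39950), which makes indole-3-acetaldoxime, had 29.7, 35.2, 36.4, 39.02 and 37.0 CPM in set 2 and 66.3, 71.6, 76.7, 80.5 and 54.98 CPM in set 1. No library overlapped, and the log2 fold change was -0.98 ± 0.10 (edgeR adjusted p = 0.0235). CYP83B1 (AT4G31500), the next enzyme, had 95.1 to 108 CPM in set 2 and 158 to 232 CPM in set 1, again without overlap (log2 fold change -0.83 ± 0.10, edgeR adjusted p = 0.0235).

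SOT16 (AT1G74100), a sulfotransferase of the final step with a preference for indole substrates, had 14.3 to 20.9 CPM in set 2 and 24.8 to 35.5 CPM in set 1 (log2 fold change -0.90 ± 0.14, edgeR adjusted p = 0.0286). The 4th called lower member was SOT17, a related sulfotransferase known for aliphatic substrates (log2 fold change -0.50, edgeR adjusted p = 0.036), and CYP79B3, the duplicate of CYP79B2, was below set 1 without overlap but had an edgeR adjusted p of 0.058. MYB28 (AT5G61420), the main activator of the aliphatic branch, was higher, with 18.6, 22.9, 18.4, 18.0 and 18.7 CPM in set 2 and 12.4, 15.6, 12.04, 12.1 and 15.5 CPM in set 1 (log2 fold change 0.52 ± 0.08, edgeR adjusted p = 0.0286). The aliphatic enzymes CYP79F1, CYP83A1 and MAM1 had log2 fold changes of -0.07, -0.08 and 0.03, none of which passed. The adjusted p of CYP79B2 was under 0.05 in 15 of 17 alternatives, though not in the fit without pgn, where 0 genes passed. These include both splits of the lines and the stricter threshold of 0.01, which reuses the main fit and which it did not pass.

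**Figure D3:**
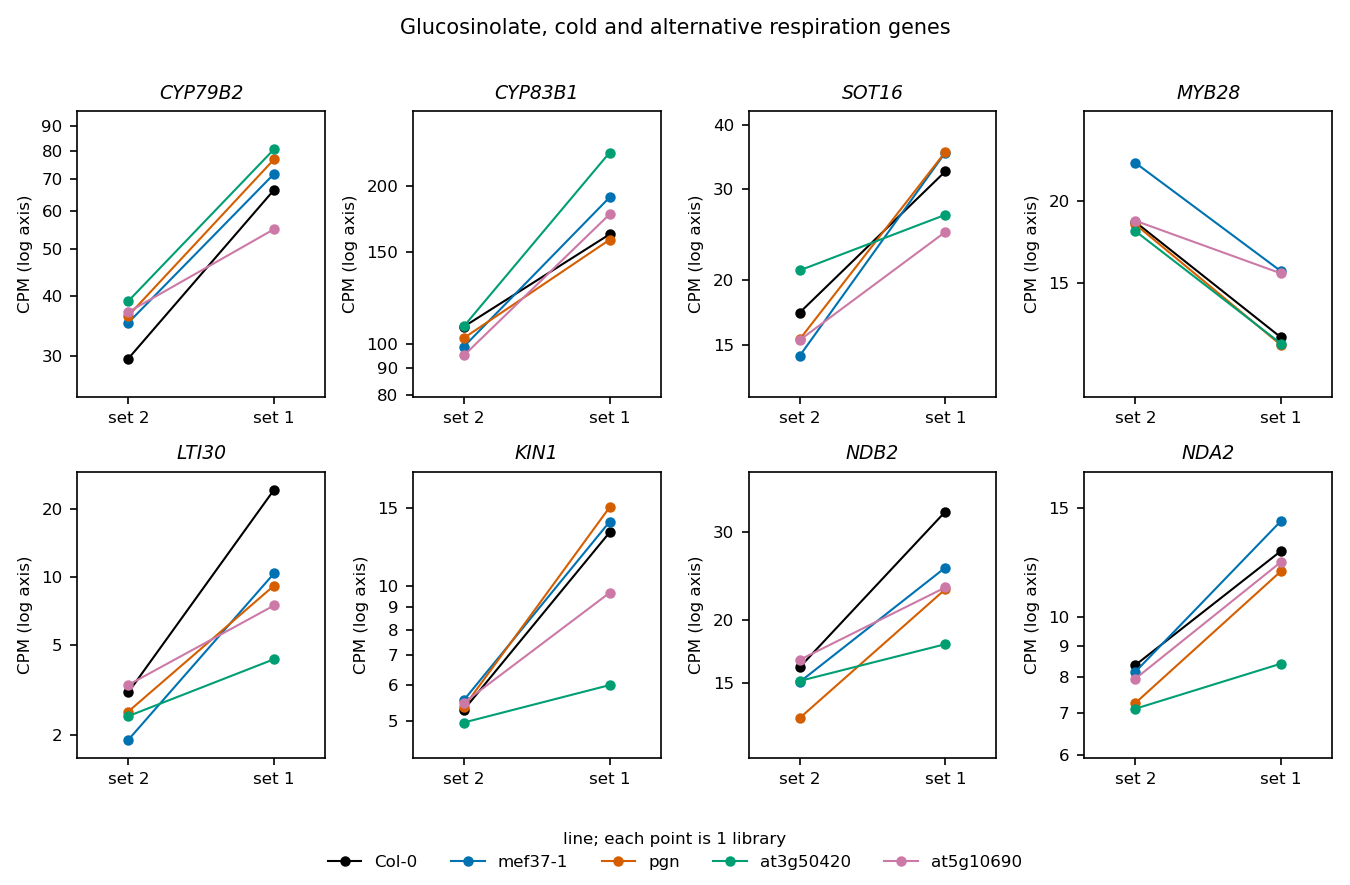
CPM on log axes of glucosinolate genes (CYP79B2, CYP83B1, SOT16, MYB28), cold-regulated genes (LTI30, KIN1) and alternative NADH dehydrogenases (NDB2, NDA2), with set 2 left and set 1 right and a line joining both libraries of a plant line. In each of the 8 panels all 5 set 2 libraries lie to 1 side of all 5 set 1 libraries, above them for MYB28 and below them for the others.

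Jasmonate genes had the second lowest median (-1.19), yet 0 of 27 were called with edgeR's quasi-likelihood test, while 20 had an unadjusted p under 0.05 in the lower direction, DESeq2 called 6 lower and edgeR's likelihood ratio test 10. The differences varied between lines. The median over members was -0.89 in Col-0, -2.45 in mef37-1 and -1.998 in pgn, against -0.26 in at3g50420 and 0.22 in at5g10690. LOX2 (AT3G45140), the chloroplast lipoxygenase at the head of the pathway, had 622, 286, 691, 628 and 909 CPM in set 2 and 931, 2083, 1675, 1461 and 780 CPM in set 1 (log2 fold change -1.13 ± 0.38, edgeR adjusted p = 0.132).

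The storage proteins VSP1 and VSP2, long used as readouts of jasmonate, had differences within a line of -6.66 and -4.95 in Col-0, -4.51 and -4.62 in mef37-1 and -6.13 and -3.72 in pgn, but 0.99 and 0.66 in at3g50420 and 0.92 and 1.305 in at5g10690. PDF1.2, a defensin that needs jasmonate and ethylene together, had another profile over the lines, at -0.11 in Col-0, -1.08 in mef37-1 and -2.42 in pgn, against -6.27 in at3g50420 and -4.41 in at5g10690. The JAZ repressors JAZ2, JAZ6 and JAZ9 were the members that came nearest to the threshold (edgeR adjusted p = 0.076, 0.087 and 0.072), each below set 1 without overlap. In Col-0, mef37-1 and pgn alone, 19 of 27 members were called lower and 0 higher. In at3g50420 and at5g10690 alone, 1 was called lower and 3 higher of 25. Both splits were made after the line values were seen, and the difference between them was not tested.

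**Figure D4:**
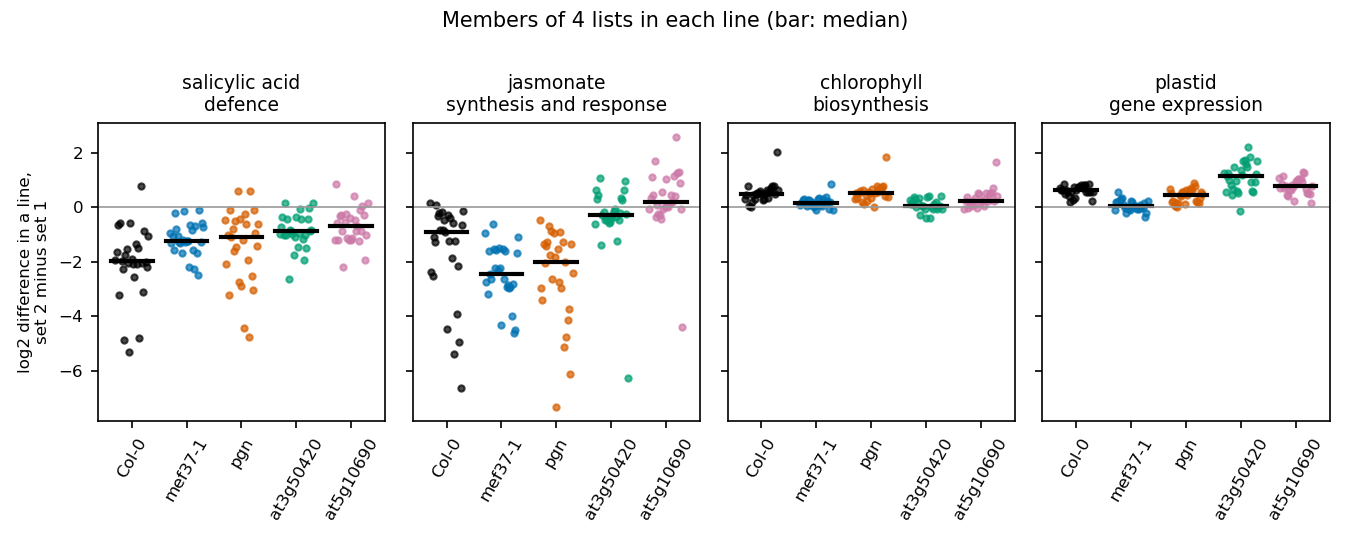
Difference of each tested member of 4 lists within each line, set 2 minus set 1, on log2(CPM + 0.5), with a black bar at the median. Salicylic acid defence has a median below 0 in all 5 lines (-1.97 to -0.69), jasmonate in 4 of them, while the medians of chlorophyll biosynthesis (0.05 to 0.53) and plastid gene expression (0.06 to 1.148) are above 0 in all 5.

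Cold-regulated genes gave 2 of 18 called lower and 0 higher, against 1.78% and 0.635% of all genes. The median was -0.38, with 9 at an unadjusted p under 0.05 in the lower direction and 0 in the higher. LTI30 (AT3G50970), a dehydrin that protects membranes in the cold, had 3.08, 1.90, 2.54, 2.42 and 3.33 CPM in set 2, below all of 24.3, 10.363, 9.15, 4.32 and 7.47 CPM in set 1 (log2 fold change -1.89 ± 0.29, edgeR adjusted p = 0.0286). KIN1 (AT5G15960) had 4.95 to 5.56 CPM in set 2 and 6.01 to 15.1 CPM in set 1 (log2 fold change -1.06 ± 0.17, edgeR adjusted p = 0.0312). Its close copy KIN2 averaged 164 CPM in set 2 and 246 CPM in set 1 (edgeR adjusted p = 0.055), and reads that fit both genes were counted for both. The cold activators CBF1, CBF2 and CBF3 had log2 fold changes of -0.27, 0.08 and 0.03 and did not pass. The promoter of LTI30 holds 3 copies of the core CCGAC that CBF proteins bind, and the distal and the middle one are shown here with 10 bases on each side, on the strand of the gene, with the core or its complement in capitals. They lie at chr3:18940532-18940556 and chr3:18940555-18940579, plus strand, in the TAIR10.1 build from RefSeq, before the annotated start of the gene.
LTI30, distal copy: ttaaaattacGTCGGtcgctaacca
LTI30, middle copy: cactactacaCCGACgtcttacttg

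The core is common: it was in 15.2% of the promoter windows of genes called lower, 18.7% of those called higher and 16.7% of all nuclear genes tested, in a window of 250 bases before to 50 after the start, on either strand. Of 12 motifs counted in the same way, the one whose share in called lower genes was furthest above that of all genes tested was GAANNTTC, the core of the heat shock element. It was in 72 of 323 promoters of genes called lower (22.3%), 10 of 107 nuclear genes called higher (9.35%) and 11.5% of all nuclear genes tested, and in 6 of the 27 salicylic acid genes. This motif was picked out after the shares were seen, and heat shock genes themselves gave 0 of 13 called with edgeR, with a median of -0.05 and 4 at an unadjusted p under 0.05 in the lower direction (2 called lower with DESeq2, 3 with the likelihood ratio test). The W-box, bound by WRKY proteins, was counted in the form TTGACC alone. This form was in 57 of 323 promoters of genes called lower, 15.0% of those called higher and 14.4% of all tested. It was in 0 of the 27 salicylic acid genes, but other forms of the site were not counted, so these genes may still hold a W-box. The copies of GAANNTTC in NIMIN1 and XYL4, and that nearest the start in CML37, are shown as examples among the called lower genes named by rule. The motif is in capitals and on the strand of the gene. They lie at chr1:498563-498590 (NIMIN1), chr5:16943830-16943857 (CML37) and chr5:25813661-25813688 (XYL4), each minus strand, TAIR10.1. That of XYL4 also matches GNATATNC, the site of the phosphate regulator PHR1.
NIMIN1: ctttttctaaGAAGTTTCgtgatgacta
CML37: acagttagatGAAACTTCatcacatgaa
XYL4: tttatacgtaGAATATTCgatgtacact

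XYL4 (AT5G64570), a β-xylosidase of the cell wall that responds to sugar, was the called gene of the sugar starvation list, with 8.16 to 12.005 CPM in set 2 and 14.5 to 22.2 CPM in set 1 (log2 fold change -0.85 ± 0.15, edgeR adjusted p = 0.0356), and the list's median was -0.01 over 26 members. HVA22D (AT4G24960), which responds to abscisic acid, had 4.95 to 6.37 CPM in set 2 and 7.12 to 12.3 CPM in set 1 (log2 fold change -0.63 ± 0.11, edgeR adjusted p = 0.0332). It was the called member of 20 in the abscisic acid list, whose median was -0.35. In that list 9 had an unadjusted p under 0.05 in the lower direction and 0 in the higher. CHS (AT5G13930), the first enzyme of flavonoid synthesis, had 7.54 to 9.97 CPM in set 2 and 10.9 to 13.6 CPM in set 1 (log2 fold change -0.51 ± 0.10, edgeR adjusted p = 0.0484), 1 of 15 tested in its list. Of these 15, 5 had an unadjusted p under 0.05 in the lower direction and 0 in the higher, with a median of -0.34. Senescence genes had a median of -0.58 and 0 of 20 called with edgeR, with 9 at an unadjusted p under 0.05 in the lower direction, while DESeq2 called 5 lower and the likelihood ratio test 6. SAG14, a blue copper protein of that list, averaged 10.45 CPM in set 2 and 43.7 CPM in set 1 (edgeR adjusted p = 0.100), and the late marker SAG12 had no counts in either set.

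Nitrogen and starch metabolism moved in single genes. GLU1 (AT5G04140), the ferredoxin-dependent glutamate synthase of leaves, had 581, 619, 640, 582 and 620 CPM in set 2, above all of 346, 446, 392, 486 and 413 CPM in set 1 (log2 fold change 0.55 ± 0.10, edgeR adjusted p = 0.0362). GLN1.3 (AT3G17820), a cytosolic glutamine synthetase, was lower without overlap (6.41 to 8.00 CPM in set 2, 8.73 to 16.5 CPM in set 1, log2 fold change -0.70 ± 0.13, edgeR adjusted p = 0.0386). NRT3.1 (AT5G50200), the partner protein of nitrate transporters, was lower in each line with overlap between the sets (1.25 CPM in set 2, 2.46 CPM in set 1, log2 fold change -1.001 ± 0.18, edgeR adjusted p = 0.0355). APL1 (AT5G19220), a large subunit of the enzyme that supplies ADP-glucose for starch, had 96.3 to 113 CPM in set 2 and 64.6 to 90.8 CPM in set 1 (log2 fold change 0.47 ± 0.08, edgeR adjusted p = 0.0356).

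The list of the chloroplast's own transcription and translation had the highest median. Of 27 tested, 4 were called higher, against 0.635% of all genes, 25 had an unadjusted p under 0.05 in the higher direction and all 27 fitted changes were above 0, with a median of 0.55. The count depended on the test and fit, with 24 called higher by DESeq2, 19 by edgeR's likelihood ratio test, 19 with no line block and 12 with no filter on low counts. The median within a line was 0.64 in Col-0, 0.06 in mef37-1, 0.47 in pgn, 1.148 in at3g50420 and 0.78 in at5g10690. rpoC2 (ATCG00170), a subunit of the plastid-encoded RNA polymerase, had 632, 604, 478, 609 and 629 CPM in set 2, above all of 348, 409, 409, 253 and 280 CPM in set 1 (log2 fold change 0.82 ± 0.16, edgeR adjusted p = 0.0416). rpoA (ATCG00740), its α subunit, had 373 to 435 CPM in set 2 and 166 to 316 CPM in set 1 (log2 fold change 0.78 ± 0.16, edgeR adjusted p = 0.0475).

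The ribosomal protein gene rps16 (ATCG00050) was also called, with 25.2 to 32.5 CPM in set 2 and 15.0 to 22.8 CPM in set 1 (log2 fold change 0.55 ± 0.09, edgeR adjusted p = 0.0335). Outside this list, ycf1 (ATCG01130), a large protein of the inner envelope, had 234 to 334 CPM in set 2 and 112 to 179 CPM in set 1 (log2 fold change 0.94 ± 0.13, edgeR adjusted p = 0.0243). Of 124 plastid genes tested 8 were called higher and 0 lower, and 2 of the 8, ATCG00870 and ATCG01270, have the same counts in every library, since reads of these identical copies were counted for both. The photosynthesis genes of the plastid, which take most of its counts, gave 0 of 32 called with edgeR (10 at an unadjusted p under 0.05 in the higher direction, 0 in the lower, 7 called higher with DESeq2 and 5 with the likelihood ratio test) and a median of 0.14. psbA, a core protein of photosystem II, averaged 276869 CPM in set 2 and 329708 CPM in set 1 (edgeR adjusted p = 0.533), and the 12 genes of the NDH complex, with a median of 0.47, had 0 called with edgeR's quasi-likelihood test and 10 at an unadjusted p under 0.05 in the higher direction. For these 12, DESeq2 called 7 higher, the likelihood ratio test 6 and the fit with no line block 4. The shift of the list was largest in at3g50420, whose set 1 library stood apart. Without that pair 3 members of the list were called higher and the median was 0.50. Without the Col-0, pgn or at5g10690 pair 0 were called with edgeR, with 22 to 24 at an unadjusted p under 0.05 in the higher direction.

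**Figure D5:**
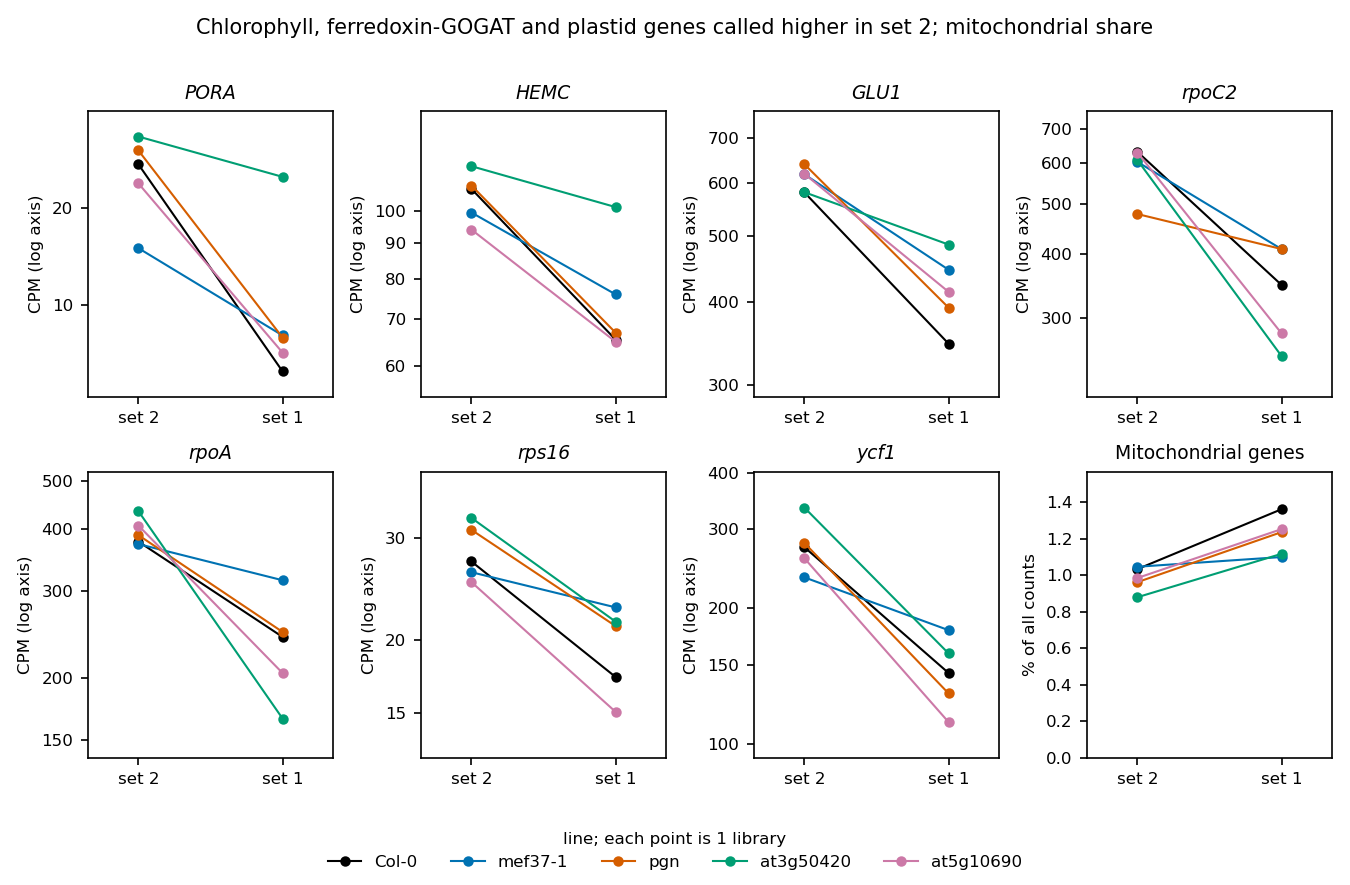
CPM on log axes of chlorophyll genes (PORA, HEMC), GLU1 and plastid genes (rpoC2, rpoA, rps16, ycf1), and the share of counts on mitochondrial genes on a linear axis, with set 2 left and set 1 right and a line joining both libraries of a plant line. All joining lines of the 7 genes run down towards set 1 and those of the mitochondrial share run up, and PORA in set 1 is 25.03 CPM in at3g50420 against 6.23 to 8.05 CPM in the other lines.

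Among nuclear genes of the chloroplast, the medians were smaller. Chlorophyll biosynthesis gave 2 of 25 called higher and 0 lower, 18 at an unadjusted p under 0.05 in the higher direction and a median of 0.29. PORA (AT5G54190), a light-dependent protochlorophyllide reductase, had 27.4, 15.0, 30.2, 33.4 and 23.9 CPM in set 2 and 6.23, 8.05, 7.93, 25.03 and 7.12 CPM in set 1 (log2 fold change 1.41 ± 0.25, edgeR adjusted p = 0.0341). The overlap came from the at3g50420 library of set 1. HEMC (AT5G08280), which joins porphobilinogen units early in the pathway, had 94.1 to 116 CPM in set 2 and 65.0 to 101 CPM in set 1 (log2 fold change 0.51 ± 0.10, edgeR adjusted p = 0.0468).

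The more abundant reductase genes PORB and PORC did not pass (log2 fold changes 0.42 and 0.31, edgeR adjusted p = 0.092 and 0.107). Rubisco and Calvin cycle genes gave 0 of 21 called with edgeR, with 11 at an unadjusted p under 0.05 in the higher direction and a median of 0.24 (2 called higher with DESeq2, 1 with the likelihood ratio test). RBCS1A, a small subunit of Rubisco, averaged 5428 CPM in set 2 and 4438 CPM in set 1 (edgeR adjusted p = 0.193). Nuclear photosystem and antenna genes gave 0 of 44 called with edgeR and 7 at an unadjusted p under 0.05 in the higher direction (1 called with DESeq2, 0 with the likelihood ratio test), although all 44 fitted changes were above 0 with a median of 0.17. In at3g50420 and at5g10690 the median of these 44 was 0.02 in each line.

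The growth list had 17 of 29 fitted changes above 0 and 12 below, with 6 higher and 5 lower at an unadjusted p under 0.05 and a median of 0.12. BEE1 (AT1G18400), a bHLH protein induced by brassinosteroid, is not in the list and was named for its size of change. It had 5.62, 7.004, 7.18, 5.02 and 4.32 CPM in set 2 and 2.44, 2.83, 2.48, 2.05 and 3.71 CPM in set 1, without overlap (log2 fold change 1.12 ± 0.19, edgeR adjusted p = 0.0322). PRE1 (AT5G39860), a small helix-loop-helix protein that promotes cell elongation, and IAA6 (AT1G52830), an auxin-induced repressor, were the called members of 29 tested in the growth list, with log2 fold changes of 1.44 ± 0.27 and 2.08 ± 0.40 (edgeR adjusted p = 0.0389 and 0.0437). IAA6 rests on 6 to 13 counts per library in set 2 and 1 to 4 in set 1. SAUR26 (AT3G03850), an auxin-responsive protein that also varies with temperature, is likewise outside the list. It averaged 1.46 CPM in set 2 and 0.695 CPM in set 1 (log2 fold change 1.09 ± 0.22, edgeR adjusted p = 0.0477). Of 40 SAUR proteins tested, grouped by RefSeq product name after the values were seen, 2 were called higher and 1 lower. At an unadjusted p under 0.05, 11 were higher and 5 lower. The expansins and aquaporins of the list, which act in cell enlargement, did not pass, and neither did GH3.3, an auxin-conjugating enzyme with the lowest fitted change of the list (log2 fold change -2.34, edgeR adjusted p = 0.181).

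The other genes of the 8 largest rises were ABCG13, PORA, AT3G19030, AT4G09160, AT3G19850 and AT5G55620. ABCG13 (AT1G51460), a transporter known for the cuticle of petals, had 1.87, 2.71, 3.297, 2.13 and 1.26 CPM in set 2 and 1.21, 0.485, 0.671, 0.364 and 0.803 CPM in set 1 (log2 fold change 1.67 ± 0.34, edgeR adjusted p = 0.048). AT3G19850, of the NPH3 family named after a phototropism protein, had 20.1, 29.6, 28.1, 28.1 and 24.0 CPM in set 2, above all of 10.6, 15.2, 14.9, 9.06 and 14.8 CPM in set 1 (log2 fold change 1.02 ± 0.13, edgeR adjusted p = 0.0235). AT4G09160, a SEC14-like lipid transfer protein, averaged 3.97 CPM in set 2 and 1.68 CPM in set 1. AT5G55620, an uncharacterized protein, averaged 8.50 CPM in set 2 and 4.197 CPM in set 1.

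PDF2 (AT4G04890), a homeodomain protein of the epidermis, had 43.8 to 50.1 CPM in set 2 and 29.8 to 35.7 CPM in set 1 (log2 fold change 0.48 ± 0.09, edgeR adjusted p = 0.0362). It was the called member of 7 tested in the list of epidermis and trichome markers, whose median was 0.01. Markers of guard cells, phloem and root gave 0 called with edgeR of 8, 13 and 3 tested, with 2, 1 and 0 at an unadjusted p under 0.05 (the likelihood ratio test called 1 guard cell marker), and the summed level of the root markers was 7.52 to 9.40 CPM in set 2 and 6.71 to 8.63 CPM in set 1. In whole rosettes, fewer cells of a type and less RNA per cell cannot be told apart.

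Several lists that follow time of day, light, oxygen or nutrients gave 0 called members with edgeR's quasi-likelihood test. At an unadjusted p under 0.05 were 2 of 13 morning-phased and 4 of 18 evening-phased clock genes. For light and shade signalling the count was 5 of 22, and for hypoxia 5 of 8. For phosphate, iron and copper it was 6 of 15, 3 of 12 and 3 of 13, where 22% of all genes were under that p. The cold and nitrate lists had called members, which are given above. The likelihood ratio test called 1 morning-phased and 3 evening-phased clock genes, 3 hypoxia, 4 phosphate, 1 iron, 2 copper and 0 light genes, and DESeq2 called 1 morning-phased clock gene, 2 hypoxia, 2 phosphate, 1 iron and 1 copper gene. The clock gene GI averaged 113 ± 5.38 CPM in set 2 and 102 ± 4.68 CPM in set 1 (SD, n = 5 each, edgeR adjusted p = 0.352). The morning-phased list varied between lines, with medians of -0.39 in Col-0, 0.50 in mef37-1, 0.33 in pgn, 0.80 in at3g50420 and -0.31 in at5g10690. Cell division genes and flowering regulators had 0 called with either edgeR test and with DESeq2 (2 of 25 and 1 of 14 at an unadjusted p under 0.05) and medians of 0.08 and 0.07.

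The set difference was partly shared by the lines. Over the 18105 genes tested, the difference within a line correlated between 2 lines with a mean Pearson r of 0.31 over the 10 pairs of lines. Col-0, mef37-1 and pgn were alike (r of 0.59 to 0.66), whereas pairs with at3g50420 or at5g10690 ranged from 0.03 to 0.29. These are correlations across genes, which are not independent, no library is shared between lines, and each value is a description. Set 2 was lower in all 5 lines in 1808 genes (9.99%) and higher in all 5 in 1758 (9.71%), and it lay wholly below set 1 in 631 (3.49%) and wholly above in 628 (3.47%).

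The 5 libraries of set 3 were placed beside the others for the called genes, on values normalized over all 15 libraries. Their mean lay between the means of sets 2 and 1 in 186 of the 323 genes called lower, at or below both in 74 and at or above both in 63. Of the 115 genes called higher it lay between in 51, at or below both in 51 and at or above both in 13. For PR2 the median was 29.3 CPM in set 2, 298 CPM in set 1 and 13.2 CPM in set 3, and for PORA 29.4 CPM in set 2, 8.40 CPM in set 1 and 6.24 CPM in set 3.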

How the data were processed

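The deposited counts are raw reads per gene that the authors made from rRNA-depleted, stranded libraries with STAR v2.7.0c, run without introns, and featureCounts v1.5.0-p2 on the TAIR10 annotation, counting strand and counting a read at every position it matched. CPM, shares and all tests were computed here. The 10 libraries of sets 2 and 1 were compared with edgeR 4.0.16 in R 4.3.3 (filterByExpr, TMM, quasi-likelihood test, line as block, 4 residual degrees of freedom, Benjamini-Hochberg over 18105 genes, called under 0.05). The design pairs the libraries by line, since both come from the same line. Alternatives included DESeq2 1.42.0, other filters and each line left out. No other per-sample columns were present (0). Of the tests, only edgeR's quasi-likelihood test was checked on simulated data.

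The rule for named genes took, in each direction, the 8 biggest changes among calls that averaged at least 1 CPM and went 1 way in 5 of 5 lines, up to 4 called members of each list with the smallest p (where fewer than 2 were called, the most abundant up to 2), and the 4 insertion genes. Others are named after their values were seen. The members and lists were chosen with earlier results of these data known. Gene symbols and promoter sequences came from RefSeq (TAIR10.1), in which 32532 of 32548 nuclear genes (99.95%) have the start and end given in the deposited files. Differences within a line were taken on log2(CPM + 0.5). Set 3 entered only the fit of all 15 libraries and the placing of its means. A gene that the rule takes is not reported here.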

Additional observations from a re-analysis of the deposited data

Results flagged for a closer look

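The cutoff used for a far library marks about 1 in 20 groups of independent, normally distributed values. That rate does not apply here, since CPM need not be normal and the groups share libraries. Of 206 groups of 5 libraries examined, 15 (7.28%) held a library far from the other 4. In 7 of them the far library was that of at3g50420 in set 1, in CPM: PORA had 25.03 (others 6.23 to 8.05), PDC2, a pyruvate decarboxylase, 162.7 (90.4 to 102), FER1, a ferritin, 164.8 (56.5 to 81.4), RBCS1A 6079 (3608 to 4304), RBCS3B 2035 (1372 to 1452), CYP86A2, a cutin enzyme, 129.7 (45.6 to 67.3), and LTP1, a lipid transfer protein, 309.5 (121 to 166). In 3 it was that of Col-0 in set 1, with AMY1 at 29.05 CPM (1.502 to 8.46), AT4G00700 at 20.32 CPM (2.098 to 7.31) and AT4G10500 at 23.45 CPM (1.64 to 7.62). ATCG00870 and ATCG01270, which share their reads, were lowest in the at5g10690 library of set 1 at 35.77 CPM each (40.1 to 41.8).

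In set 2, MYB28 had 22.88 CPM in mef37-1 (17.99 to 18.7 in the others), rpoC2 had 478.1 CPM in pgn (604 to 632), and AT5G08305 had 0.704 CPM in the library labelled mef37-1 (0.333 to 0.434).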

How the results depend on the processing

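No paired analysis was possible with the replicate number as a block because the number itself is the factor compared, and the fit has line as the block instead. With the 438 called genes as the base, DESeq2 called 965, edgeR's likelihood ratio test 1536, the fit with no filter on low counts 709, the fit with no line block 1209 (62.0% of them lower, against 73.7%), robust dispersion 538 (65.1% lower) and an adjusted p under 0.01 left 1. Leaving out a line in turn gave 0 (without pgn) to 652 (without at3g50420) genes. Without at5g10690, 89.7% of the calls were lower. In fits chosen after seeing the data, Col-0, mef37-1 and pgn alone gave 1375 and at3g50420 and at5g10690 alone 175. Every called gene that was still tested kept its direction in the alternatives in which direction was recorded, and over the named genes 1360 values stayed on their side of the threshold, 28 crossed to called, 298 crossed to not called. Of the 101 named genes, 21 changed sign in at least 1 alternative, and 0 of these 21 are among the called genes. Kept direction is a weak check here, since 437 of the 438 called genes already went 1 way in all 5 lines. The mean difference in mitochondrial share was -0.277 to -0.208 percentage points with a line left out, that in plastid share -1.13 to 0.718, and the mean correlation between lines 0.243 to 0.394. Genes of few counts, such as NIMIN1 and IAA6, are limited by depth.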

Other observations

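Gene families taken from the RefSeq product names, after the values were seen, gave further counts beside the 1.78% of all genes called lower and 0.635% called higher. Cysteine-rich receptor-like kinases, which sit at the cell surface, gave 7 of 31 called lower and 1 higher, receptor-like proteins 10 of 44 lower and 1 higher, and WRKY transcription factors 8 of 46 lower and 0 higher (median log2 fold change -0.69). Lectin kinases gave 1 of 42 called lower and 0 higher, and wall-associated kinases 2 of 6 lower and 0 higher, so kinases of this kind did not all shift alike. Glutathione S-transferases gave 3 of 32 lower, UDP-glycosyltransferases 6 of 81 and cytochrome P450 proteins 3 of 101, each with 0 higher. Among intracellular immune receptors, 1 of 63 TIR-NBS-LRR proteins was called lower, and 0 of 21 CC-NBS-LRR proteins were called with edgeR (2 lower and 7 higher at an unadjusted p under 0.05).

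Pentatricopeptide repeat proteins, the wider family of the proteins studied, gave 1 of 243 called higher and 0 lower, with a median of 0.14. They were higher in all 5 lines in 40 genes and lower in all 5 in 2, where 9.71% and 9.99% of all genes were. Ribosomal proteins gave 0 of 313 called with edgeR (44 higher and 10 lower at an unadjusted p under 0.05, where 9.75% of all genes were higher and 12.3% lower).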
